A study of Mus musculus with 6 samples.

Results

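Usp17la, Usp17lb, Usp17lc, Usp17ld and Usp17le make up the mouse Usp17l group of deubiquitinases. The 5 genes were taken by name from the 22600 genes of the count table, in all 6 libraries. The set was selected on measured values: it was proposed once the rise of its counts in OHT-treated ES cells was known. Its values in that contrast are therefore given as a description, with no test.

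RNA-seq was done on mouse embryonic stem (ES) cells and on FLICs, the name in the labels for differentiated cells made from ES cells. All cells had a C57BL/6 background and were grown for 96 h. The groups were untreated ES cells labelled wild-type (n = 2 libraries), ES cells given OHT (hydroxytamoxifen) for 3 days and labelled TRF2-/- (n = 2), untreated wild-type FLICs (n = 1) and TRF2-/- FLICs given OHT for 3 days (n = 1). TRF2 is the telomere-binding protein encoded by Terf2. The labels describe neither the Terf2 alleles nor the recombinase, and no group received OHT while keeping TRF2, so OHT and loss of TRF2 cannot be told apart.

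Deubiquitinases remove ubiquitin from other proteins and so change their stability or activity. The Usp17l genes belong to the cysteine proteases of the ubiquitin-specific (USP) class. They were first described in mouse as DUB-1 and DUB-2, genes induced by cytokines in blood cells, and related human enzymes are called USP17 and DUB3. Usp17l transcripts are also known from the 2-cell mouse embryo and from the rare cultured ES cells that resemble it.

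All 5 genes lie on chromosome 7 (GRCm38, GENCODE M21). Usp17ld (ENSMUSG00000057321) occupies chr7:103249737-103252505 on the minus strand and Usp17lc (ENSMUSG00000058976) chr7:103415072-103419880 on the plus strand. Usp17le (ENSMUSG00000043073) occupies chr7:104768049-104777470 and Usp17lb (ENSMUSG00000062369) chr7:104840257-104842603, both on the minus strand. Usp17la (ENSMUSG00000054568) occupies chr7:104857009-104862667 on the plus strand. The genes thus form a pair separated by 162.57 kb and a trio with gaps of 62.787 and 14.406 kb, and 1348.2 kb lie between the pair and the trio.

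Promoters of 4 members were matched by symbol in the RefSeq table (GRCm38.p6, 250 bases before to 50 bases after each start). The stretches below are shown because these members were all higher in OHT-treated ES cells. Each is 99 bases long and runs 5′ to 3′ on the strand of its gene. Capitals mark matches to 2 motifs, the TATA box and the CCAAT box, of which the second is read here on the opposite strand.
Usp17la, chr7:104856895-104856993, plus strand: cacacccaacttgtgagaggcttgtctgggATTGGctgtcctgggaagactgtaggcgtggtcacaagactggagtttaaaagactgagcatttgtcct
Usp17lb, chr7:104842591-104842689, minus strand: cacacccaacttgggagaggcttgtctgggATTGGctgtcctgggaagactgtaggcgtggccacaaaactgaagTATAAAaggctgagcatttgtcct
Usp17lc, chr7:103416533-103416631, plus strand: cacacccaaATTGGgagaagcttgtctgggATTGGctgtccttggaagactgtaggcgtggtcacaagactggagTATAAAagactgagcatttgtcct
Usp17ld, chr7:103252592-103252690, minus strand: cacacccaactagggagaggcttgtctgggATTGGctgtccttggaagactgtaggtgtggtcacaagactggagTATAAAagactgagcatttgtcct

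The 4 stretches were identical at 92.93% to 95.96% of positions over the 6 pairs. Motifs were searched on both strands of the whole promoter windows, and no matches in the 4 members overlapped. The CCAAT box, searched by those 5 letters, was found in 4 of 4 members and in 37.41% of all 32851 promoters. The letters TATAAA were found in 3 of 4 members, Usp17lb, Usp17lc and Usp17ld, and in 13.62% of all promoters. They began at -31 from the annotated start in Usp17lb, at -88 in Usp17lc and at -110 in Usp17ld. As the stretches are so alike, matches in different members are not independent. The letters CACACCC at the start of each stretch, a motif chosen after these sequences had been read, were in 4 of 4 members and in 7.954% of all promoters. A Dux motif (in 0.03348% of all promoters), the Zscan4 letters TGCACAC (4.396%) and the oestrogen response element (0.02131%) were found in none of the 4 windows.

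The coding sequences were identical at 90.53% to 98.41% of aligned bases over the 10 pairs (GENCODE M21, GRCm38). Usp17lc and Usp17ld were the most alike pair. The longest run shared by all 5 members had 63 bases and is shown because reads inside it cannot be given to 1 member. In Usp17la it lies within 1 coding exon at chr7:104860595-104860657, plus strand.
Run common to the 5 members: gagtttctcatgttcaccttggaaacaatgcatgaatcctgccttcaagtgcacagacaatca

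The 60-base coding window with the most differences shows where reads can tell members apart. Capitals mark bases that differ from the most common base of the 5 members. Usp17lb carried 14 such bases there, against 2 to 4 in the other members.
Usp17la, chr7:104861533-104861592, plus strand: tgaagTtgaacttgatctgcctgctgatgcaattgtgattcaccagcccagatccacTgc
Usp17lb, chr7:104840319-104840378, minus strand: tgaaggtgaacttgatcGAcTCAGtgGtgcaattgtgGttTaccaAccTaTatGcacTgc
Usp17lc, chr7:103418900-103418959, plus strand: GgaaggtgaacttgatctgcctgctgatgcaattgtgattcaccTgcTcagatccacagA
Usp17ld, chr7:103250264-103250323, minus strand: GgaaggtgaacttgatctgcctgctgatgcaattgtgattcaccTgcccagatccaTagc
Usp17le, chr7:104768429-104768488, minus strand: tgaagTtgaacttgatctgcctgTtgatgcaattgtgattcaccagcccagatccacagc

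Of all 75-base windows of a member's coding sequence, 53.2% in Usp17lc and the same share in Usp17ld also occurred in another member. The share was 15.4% in Usp17lb, 12.2% in Usp17le and 8.98% in Usp17la. Outside the 5 genes, such windows occurred in the transcripts of Gm5053 and Usp17le-ps, which are not rows of the table used here. The sources used here give neither the read length nor how reads shared by copies were assigned. The sum over members is therefore the firmer value, and single members, above all Usp17lc and Usp17ld, are uncertain.

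Total counts per library ran from 23534551 to 43965309, and a count of 0 allows up to 3 counts, or 0.0686 to 0.118 CPM (counts scaled to the size of the library). The 2 untreated ES cell libraries held 554 and 732 counts of Terf2, the 2 with OHT 9 and 10, and FLICs 268 without and 5 with OHT. The summed ES cell markers (Pou5f1, Sox2, Nanog, Zfp42, Esrrb) stood at 2650 to 2971 CPM in ES cells and at 59.5 to 100.4 CPM in FLICs. The summed mesenchymal markers (Col1a1, Col1a2, Acta2, Thy1, Vim) stood at 269 to 403 and at 12740 to 15710 CPM. The FLICs sums came mostly from Acta2 and Vim. Thy1 alone went the other way, at 4.42 to 7.41 CPM in ES cells and 0.556 and 0.641 CPM in FLICs. On the log2(CPM + 1) scale, the 2 untreated ES cell libraries differed by at least 1 in 0 of 12149 genes with a mean of 1 CPM or more. The 2 OHT libraries did so in 470 of 12698. The added 1 hides some 2-fold differences of genes at a few CPM or less. Of those 470 genes, 421 were higher in OHT library 2.

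In untreated ES cells, the 5 members together had 127 and 158 counts, equal to 4.20 and 4.21 CPM in libraries 1 and 2. With OHT they had 2720 and 1266 counts, equal to 84.9 and 49.6 CPM. The groups did not overlap, and the untreated values were nearly equal while OHT library 1 was 1.71 times OHT library 2. The fold was 15.995 between the means, 20.2 between the libraries numbered 1 and 11.8 between those numbered 2. Across all genes, edgeR called 0.534% in this contrast, 0.521% as higher and 0.0129% as lower, which is given only as the background of a contrast that served to choose the members. These are bulk libraries, in which more expressing cells and more RNA per cell cannot be told apart.

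Usp17lb, the shortest member by coding length, had 27 and 27 counts without OHT and 758 and 334 with it. Its CPM went from 0.806 ± 0.124 to 18.4 ± 7.46 (SD, n = 2), a 22.8-fold difference. Both OHT libraries were far above both untreated ones, with folds of 26.5 between the libraries numbered 1 and 18.2 between those numbered 2. Usp17lc, from the pair, had 17 and 28 counts without OHT and 560 and 257 with it. Its mean CPM went from 0.654 ± 0.129 to 13.8 ± 5.23 (SD, n = 2), a 21.1-fold difference. For Usp17lc the fold within the libraries numbered 1 was 31.1 and within those numbered 2 it was 13.5, so Usp17lb and Usp17lc could not be ranked by their folds.

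Usp17ld, the other gene of the pair, had 16 and 21 counts without OHT and 282 and 139 with it, and its CPM went from 0.544 ± 0.0207 to 7.12 ± 2.37 (SD, n = 2). Usp17la had 24 and 27 counts without OHT and 401 and 189 with it, and went from 0.757 ± 0.0536 to 9.96 ± 3.61 CPM (SD, n = 2). Usp17le had 43 and 55 counts without OHT and 719 and 347 with it, and went from 1.44 ± 0.0287 to 18.02 ± 6.24 CPM (SD, n = 2). These 3 members thus had smaller folds, of 13.1, 13.2 and 12.5. In each of the 5 members the value of OHT library 1 was 1.61 to 1.81 times that of OHT library 2.

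**Figure D1:**
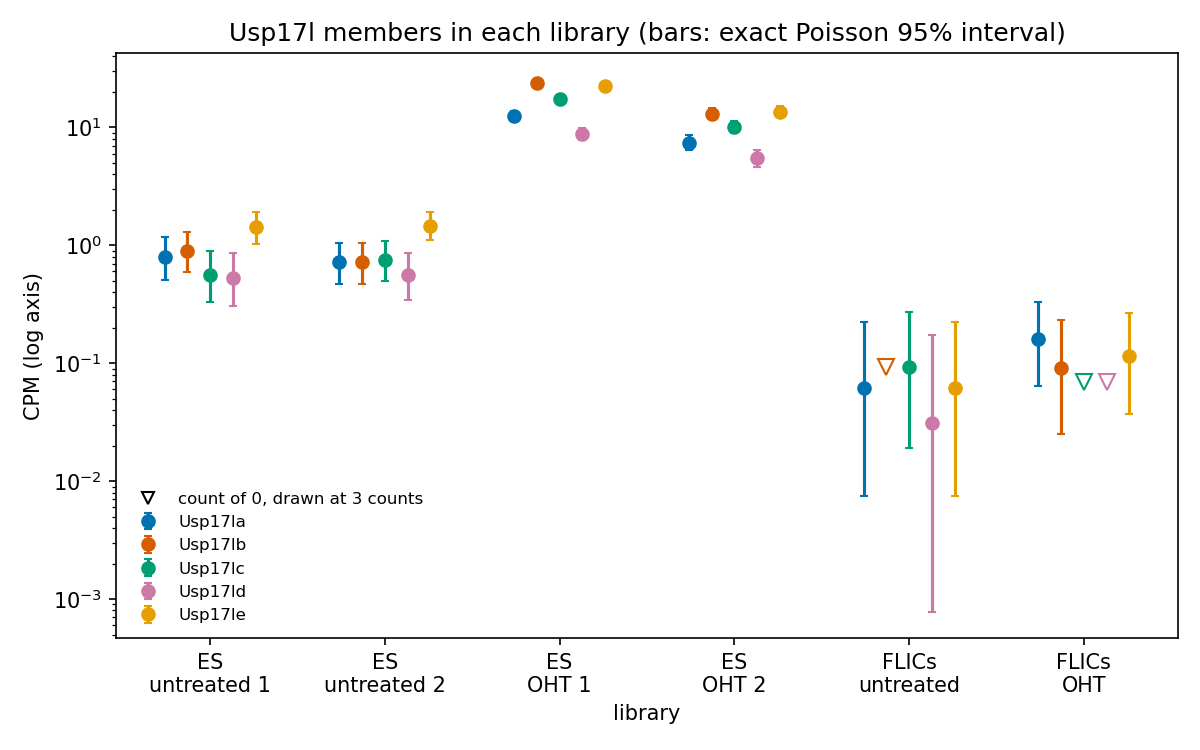
CPM of each Usp17l member (colours) in the 6 libraries on a log axis, with bars for the exact Poisson 95% interval of the count and open triangles at 3 counts where the count was 0. In ES cells with OHT the members sit between 5.45 and 23.7 CPM, in untreated ES cells between 0.530 and 1.46 CPM and in FLICs at 0.160 CPM or less.

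Levels of different members were compared per kilobase of the deposited length. In untreated ES cells Usp17le was the highest at 0.835 ± 0.0166 CPM per kb (SD, n = 2), and both its libraries stood above every value of the other members. Usp17lb followed at 0.574 ± 0.0882, Usp17la at 0.479 ± 0.0340, Usp17lc at 0.393 ± 0.0776 and Usp17ld at 0.333 ± 0.0127 CPM per kb. The values of Usp17lc and Usp17ld overlapped, and the lower library of Usp17lb (0.512 CPM per kb) was close to the higher one of Usp17la (0.503).

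With OHT, Usp17lb was the highest at 13.1 ± 5.32 CPM per kb (SD, n = 2), ahead of Usp17le at 10.4 ± 3.61, Usp17lc at 8.28 ± 3.15, Usp17la at 6.31 ± 2.29 and Usp17ld at 4.36 ± 1.45. Neighbours in this order overlapped between the 2 libraries, but each OHT library by itself gave the same order of the 5 members. The deposited length of Usp17le is 1728 bases while its annotated coding sequences have 1626 and 1620 bases, so its per-kilobase level depends on that length.

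The make-up of the family count in ES cells is described without a test, as the same contrast chose the members. Usp17lb made up 18.9% of the family count in the pooled untreated ES cell libraries (exact Clopper-Pearson 95% interval 14.6% to 24.0%) and 27.4% in the pooled OHT libraries (26.0% to 28.8%). Usp17le made up 34.4% (28.9% to 40.2%) without OHT and 26.7% (25.4% to 28.1%) with it. In single libraries these intervals were wider: in untreated library 1 Usp17lb made up 21.3% (14.5% to 29.4%), a range that holds its OHT share. For the other 3 members the pooled intervals overlapped. Usp17lc made up 15.8% (11.8% to 20.6%) without OHT and 20.5% (19.3% to 21.8%) with it, Usp17la 17.9% (13.6% to 22.8%) and 14.8% (13.7% to 15.9%), and Usp17ld 12.98% (9.31% to 17.4%) and 10.6% (9.62% to 11.6%). The shares differed by at most 1.49 percentage points between the 2 OHT libraries, although their family totals differed 1.71-fold. Between the untreated libraries they differed by up to 4.34 points, for Usp17lc. These intervals hold counting error alone, as no molecular identifiers are mentioned in the labels.

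**Figure D2:**
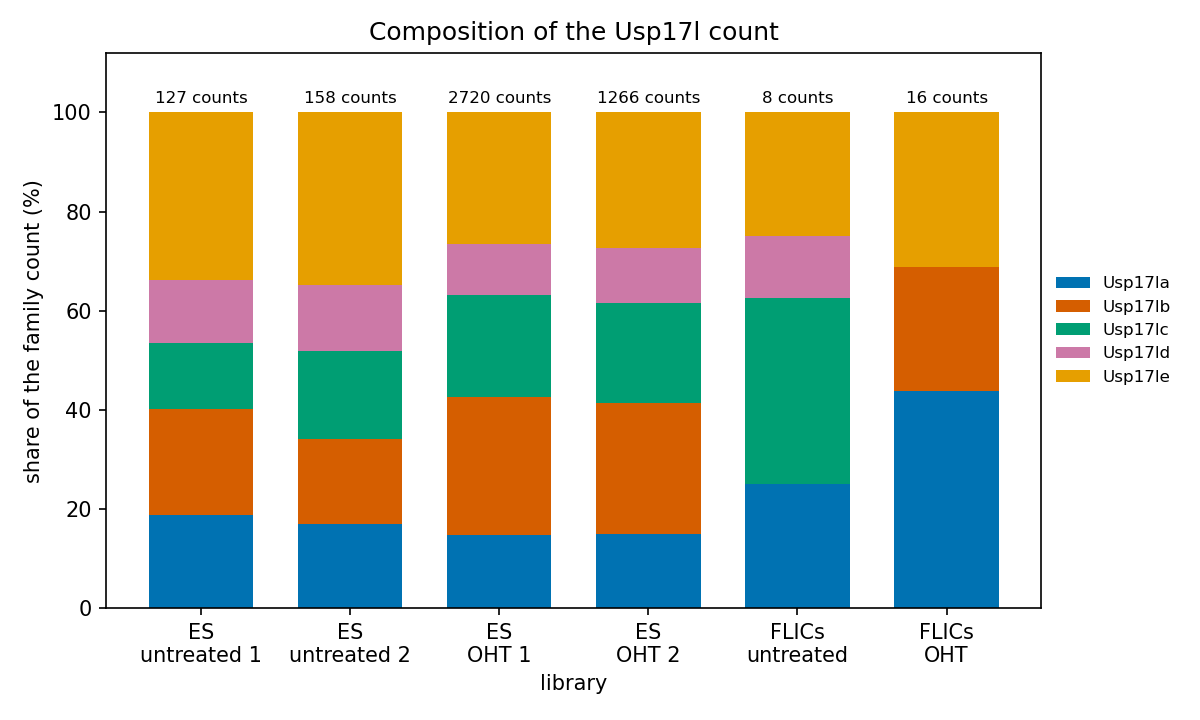
Share of each member (colours) in the Usp17l count of each library, in percent, with the family count above each bar. The 2 ES cell libraries with OHT have nearly the same make-up, while the FLICs bars rest on 8 and 16 counts.

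Untreated FLICs were then compared with untreated ES cells, a contrast that does not use the OHT libraries for its difference but shares the untreated ES cell libraries with the OHT contrast. The family sum was lower in FLICs, at 8 counts or 0.247 CPM against 4.20 and 4.21 CPM. In a fit with the 5 members summed to 1 row, the log2 difference was -4.07 ± 0.55 (SE, edgeR adjusted p = 0.00194). FLICs rest on 1 library, which the fit assumes to vary like the ES cell libraries.

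Each of the 5 members was lower in FLICs than in ES cells. In this contrast edgeR called 28.7% of all genes as lower, 26.2% as higher and 54.9% in either direction. Each member passed the low-count filter only through the ES cell libraries, where it was higher. A member as low in ES cells as in FLICs would not have been tested, so the adjusted p-values of single members are descriptive. Usp17le had 2 counts in FLICs, a ratio of ES cells to FLICs of 23.4 (95% counting interval 6.31 to 196.1; edgeR adjusted p = 0.00305). Usp17lb had a count of 0 in FLICs. The 95% counting interval of its ratio began at 6.76 and had no upper end (edgeR adjusted p = 0.0058). Usp17ld had 1 count, a ratio of 17.7 (2.98 to 717.1; edgeR adjusted p = 0.0094).

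Usp17la had 2 counts in FLICs, a ratio of 12.2 (3.21 to 103.4; edgeR adjusted p = 0.00948). Usp17lc had 3 counts, a ratio of 7.17 (2.30 to 36.1; edgeR adjusted p = 0.0222), the smallest difference of the 5. The wide intervals mean that the members could not be ranked by their difference at this depth.

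A difference of the family with OHT was not detectable in FLICs at this depth. The sum had 8 counts without OHT and 16 counts with it, or 0.247 and 0.366 CPM, a ratio of 1.48 with an exact 95% counting interval of 0.599 to 4.001. Usp17la went from 2 to 7 counts, Usp17lb from 0 to 4 and Usp17le from 2 to 5, while Usp17lc went from 3 to 0 and Usp17ld from 1 to 0. There was 1 library per group, so no test was made. With OHT, the mean CPM of the sum in ES cells was 184 times that of FLICs, and the ratio from counts pooled over the 2 ES cell libraries was 189 (counting interval 116.4 to 331.3). Usp17lc and Usp17ld, both at a count of 0 in FLICs with OHT, were at least 201-fold and 104-fold higher in ES cells with OHT against a floor of 3 counts. Whether OHT acted differently on the family in ES cells and FLICs was not tested, since FLICs have no replicate and the OHT libraries of ES cells served to choose the members.

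The other deubiquitinases were examined beside the family. Of 53 other USP-type genes 51 were tested, and edgeR called 0 of them between ES cells with and without OHT. At an unadjusted p under 0.05 there were 2 higher and 9 lower, and DESeq2 called 0. Over all genes, 2841 of 15535 had an unadjusted p under 0.05 in either direction, and DESeq2 called 2.39%. The median log2 difference of the USP-type genes was -0.20, against -0.01 over all genes tested. The largest differences were in Usp25, which had 9.10 and 9.98 CPM without OHT and 5.62 and 5.88 CPM with it, then Usp26 (log2 difference 0.58) and Usp43 (-0.56). Without OHT library 1, 28 USP-type genes were called, and 12 without OHT library 2. Those fits leave 1 OHT library, assumed to vary like the nearly equal untreated pair, and they called 40.2% and 28.7% of all genes.

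Of 39 deubiquitinases of other classes edgeR likewise called 0 with OHT in ES cells (3 higher and 1 lower at an unadjusted p under 0.05), while DESeq2 called 2. Over all genes, 2841 of 15535 had an unadjusted p under 0.05 in either direction, and DESeq2 called 2.39%. Among the other edgeR fits, 1 gene of this list was called with relative log expression scaling and 1 with ES cell libraries only. The fit with no count filter called 2 and the fit with a replicate block called 3. Over all genes, these fits called 0.734%, 1.04%, 1.41% and 7.76%, in that order. Otud6a, an OTU-class enzyme, had 2.48 and 2.64 CPM without OHT and 8.55 and 7.53 CPM with it, a log2 difference of 1.65 ± 0.22 (SE, edgeR adjusted p = 0.0533). The 4 values did not overlap between groups, but the adjusted p missed the threshold of 0.05. Tnfaip3, an inhibitor of NF-kB signalling also called A20, differed by 1.01 and Mpnd by -0.79 on the log2 scale. The median log2 difference of this list was -0.01, and it was -0.01 without OHT library 1 and 0.05 without OHT library 2. Those fits leave 1 OHT library, and they called more genes both in this list and over all genes.

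Between untreated FLICs and untreated ES cells, 31 of the 51 USP-type genes were called (60.8%, against 54.9% of all genes), 7 higher and 24 lower. Usp50 fell by 5.72 and Usp26 fell by 5.05 on the log2 scale, so the 5 Usp17l genes were not the only low USP-type genes of FLICs. For Usp26 the ES cell libraries without OHT gave 8.71 and 12.03 CPM, and FLICs without OHT gave 0.309 CPM (edgeR adjusted p = 0.000277). Usp2 (-2.38) and Usp48 (-2.36) also fell, while Usp25 (2.40) and Usp20 (2.29) rose. The median log2 difference of the USP-type genes was -0.57, against -0.11 over all genes. It was -0.60 without untreated ES cell library 1 and -0.53 without library 2. Those fits called fewer genes both in this list and over all genes. Of the 39 other deubiquitinases 13 were higher and 8 lower (53.8%, against 54.9% of all genes). Otud6a fell by 5.29, Atxn3 by 2.55 and Mindy1 by 2.22 on the log2 scale, and Tnfaip3 (4.10), Stambp (2.43) and Stambpl1 (2.31) rose. The median log2 difference of these 39 genes was 0.17. It was 0.26 without untreated ES cell library 1 and 0.14 without library 2, and those fits again called fewer genes.

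**Figure D3:**
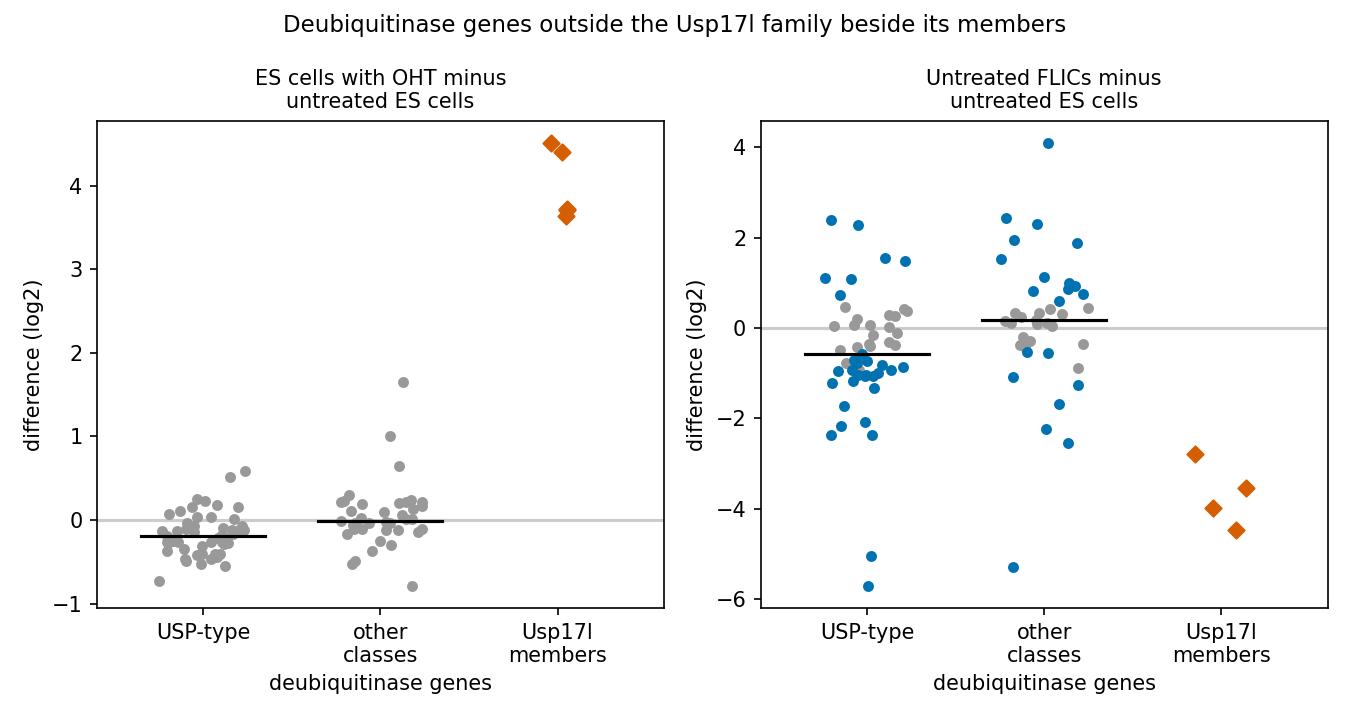
Log2 differences of USP-type and other deubiquitinases, with called genes in blue, uncalled genes in grey and the list medians as lines, beside the Usp17l members (diamonds). Points are edgeR estimates, except that the members on the left are log2 ratios of mean CPM; Usp17lb is not drawn on the right, where its count in FLICs was 0. On the left the members stand at 3.64 to 4.51 and the other genes at 1.65 or less.

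Genes of interleukin-2 and interleukin-3 signalling were examined because DUB-1 and DUB-2 are known as cytokine-induced genes. Of 22 genes 17 were tested, and edgeR called 0 with OHT in ES cells, while DESeq2 called 1 (against 2.39% of all genes). At an unadjusted p under 0.05 there were 1 higher and 3 lower, against 2841 of 15535 genes in either direction. The receptor genes Il2ra and Il5ra had a count of 0 in each library, and Csf2rb, the common beta chain of the interleukin-3 receptor, reached at most 0.125 CPM. Il3ra had 0.463 and 0.612 CPM without OHT and 0.530 and 1.88 CPM with it, values that overlapped between groups. Pim2, a kinase gene induced by STAT5, had a log2 difference of 0.75 and Csf2ra one of 0.61. The median log2 difference of this list was 0.09, and it was -0.05 without OHT library 1 and 0.12 without OHT library 2. Those fits leave 1 OHT library, and they called more genes both in this list and over all genes.

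Between FLICs and ES cells without OHT, 11 of the same 17 genes were called (64.7%, against 54.9% of all genes), 6 higher and 5 lower in FLICs. Osm, which encodes the cytokine oncostatin M, had 4.87 and 6.31 CPM in untreated ES cells and a count of 0 in FLICs. Jak3 fell by 2.91 and Socs2 by 2.75, while Jak2 (2.46), Il3ra (2.22) and Stat5b (1.66) rose, all on the log2 scale.

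Markers of blood cells were near the floor in part and present in part. Hbb-bt was at 0 in all libraries, and Ptprc reached at most 0.0784 CPM, in OHT library 2. The summed 7 blood markers stood at 9.13 to 10.3 CPM in untreated ES cells, at 12.9 to 14.2 CPM with OHT and at 4.51 to 5.44 CPM in FLICs. In ES cells the sums came mostly from Cd3e and Spi1, and in FLICs mostly from Itga2b. Itga2b was higher in FLICs, at 4.48 and 5.31 CPM against 0.794 and 0.932 CPM in untreated ES cells. Of the 4 blood markers tested there, edgeR called 1 as higher in untreated FLICs and 3 as lower. The summed 4 trophoblast markers stood at 56.3 to 56.8 CPM in untreated ES cells and 92.7 to 103.3 CPM with OHT. Most of that rise came from Krt18, at 15.4 and 18.5 CPM without OHT and 43.65 and 41.99 with it (edgeR adjusted p = 0.0414). Cdx2 overlapped between groups, at 4.90 and 4.90 CPM without OHT and 8.33 and 4.51 with it. The summed 3 endoderm markers stood at 0.532 to 0.596 CPM in untreated ES cells, 1.65 to 1.84 CPM with OHT and 79.2 to 80.04 CPM in FLICs. With OHT in ES cells, the blood, trophoblast and endoderm sums moved in the same direction as the Usp17l genes. Their part in the Usp17l values was not tested.

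Proteins reported as substrates of the human USP17 and DUB3 enzymes were followed at the RNA level only. Of 8 such genes edgeR called 0 with OHT in ES cells (1 higher at an unadjusted p under 0.05), and DESeq2 called 1. Over all genes, 2841 of 15535 had an unadjusted p under 0.05 in either direction, and DESeq2 called 2.39%. Snai1, a transcription factor of epithelial-mesenchymal transition, had 5.76 and 6.28 CPM without OHT and 13.3 and 12.8 CPM with it, a log2 difference of 1.11 ± 0.16 (SE, edgeR adjusted p = 0.061). Ifih1 differed by -0.98. The median log2 difference of the list was 0.02, and it was -0.12 without OHT library 1 and 0.23 without OHT library 2. Those fits leave 1 OHT library, and they called more genes both in the list and over all genes. In untreated FLICs Snai1 was higher than in untreated ES cells (log2 difference 2.30), and Ddx58 (-2.08) and Cdc25a (-1.35), a cell cycle phosphatase, were lower. In all, 1 gene of the list was called as higher and 3 as lower (50%, against 54.9% of all genes).

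Most genes around the family had no counts in these cells. Within the span from Usp17ld to Usp17la and 500 kb on each side there were 138 other genes, of which 118 were olfactory receptor genes and 118 had a count of 0 over all libraries. The nearest gene beyond Usp17la, Olfr665 at 15.36 kb, had 2 counts, and the nearest beyond Usp17ld, Olfr594 at 27.42 kb, had 0. Only 9 neighbours were tested, 8 Trim genes between the pair and the trio and Olfr654. Both edgeR and DESeq2 called 0 of them with OHT in ES cells. At an unadjusted p under 0.05, 3 were higher, against 2841 of 15535 genes in either direction. The median log2 difference of the 9 neighbours was 0.83, from genes of which several were near the floor. It was 0.17 in a fit of the ES cell libraries only. The largest differences were in Olfr654, with 0 and 0 counts without OHT and 0 and 1 with it, and in Trim30d, with 3 and 0 counts and 13 and 2.

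Trim6, an E3 ubiquitin ligase gene and the most abundant neighbour, had 5399 and 6756 counts without OHT and 4436 and 4070 with it, a log2 difference of -0.27. The median log2 difference of the 9 neighbours was 0.77 without OHT library 1 and 0.61 without OHT library 2. Those fits leave 1 OHT library, and they called more neighbours and also more of all genes. With a window of 1000 kb on each side, 32 of 180 genes were tested and edgeR and DESeq2 each called 0. At an unadjusted p under 0.05 there were 5 higher and 4 lower, against 2841 of 15535 genes in either direction. The median log2 difference was -0.01. Single genes of the wider window ran from -0.95 to 4.84, and 5 were at 1 or more in either direction. In untreated FLICs 3 of the 9 neighbours were called as higher than in untreated ES cells and 4 as lower (77.8%, against 54.9% of all genes), or 3 in all with a filter of at least 5 CPM in 2 libraries. Trim6 fell by 5.35 on the log2 scale, and Trim30d, at 3 and 0 counts in untreated ES cells and 287 in FLICs, rose.

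**Figure D4:**
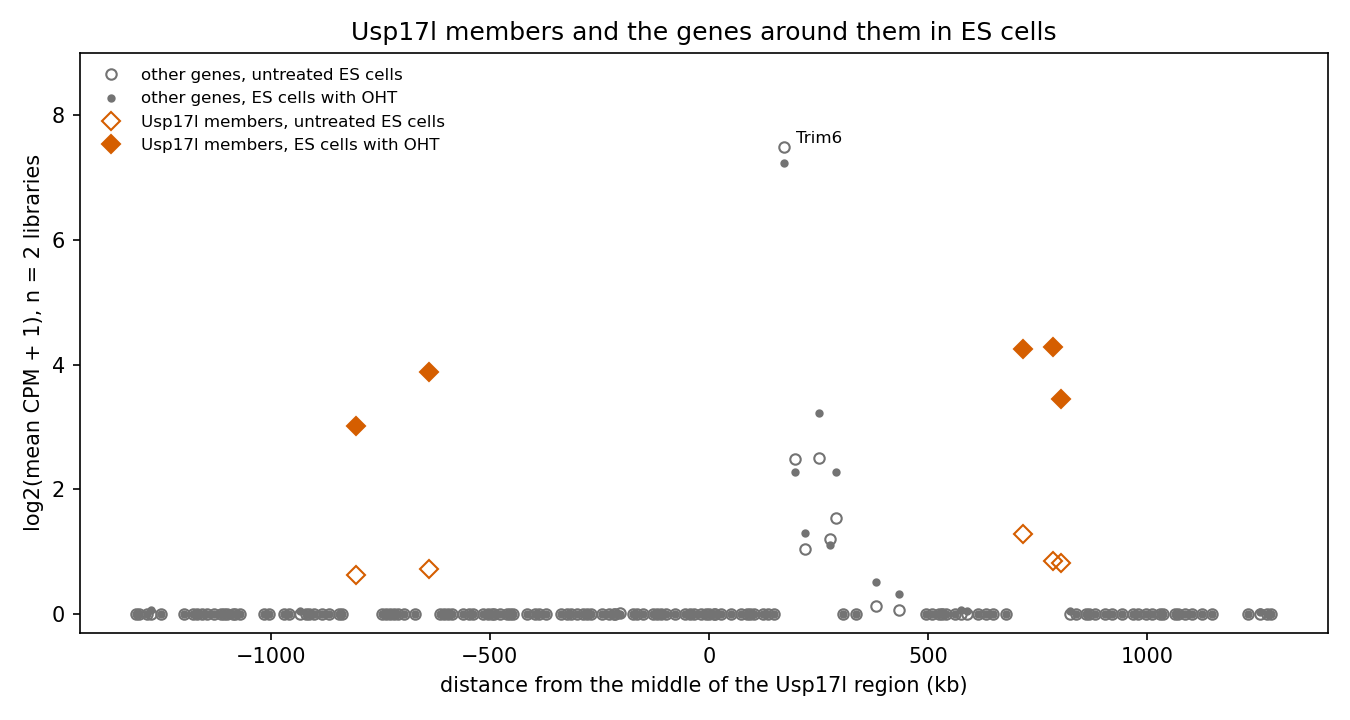
Mean CPM in ES cells, as log2(CPM + 1), of the Usp17l members (diamonds) and the other genes around them (circles) by distance in kb from the middle of the Usp17l region, without OHT (open) and with OHT (filled). The members lie in 2 places within a run of genes that are mostly at 0, and Trim6 is the highest neighbour.

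Genes whose levels ran most like the family sum were found by Pearson correlation of log2(CPM + 1) over the 6 libraries, among 12693 genes with at least 1 CPM in ES cells with OHT. With 3 kinds of level in 6 libraries many genes reach high values, and 50 genes were at 0.99 or more, so the correlations are a description. The 8 named genes most alike were Spesp1, Asz1, Zscan4c, Stox1, BB287469, Dpf3, Chit1 and Zscan4e, with Pearson correlations of 0.997 to 0.9996 and Spearman correlations of 0.928 to 1. Zscan4c, a zinc-finger gene, had 3.44 and 2.90 CPM in untreated ES cells, 61.1 and 46.3 with OHT and a count of 0 in both FLICs libraries. Spesp1, a sperm protein gene, had 1.16 and 1.14 CPM in untreated ES cells, 10.6 and 7.53 CPM with OHT and 0 in FLICs. Chit1, a chitinase gene, had 1.12 and 1.01 CPM, 14.0 and 9.84 CPM, and 0. The ranking depended on the pseudocount: with 0.1 in place of 1, 2 of these 8 genes stayed among the first 8.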

How the data were processed

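The authors deposited whole-number counts per gene, not normalized, and gene lengths. Salmon, DESeq2 and the build GRCm38 are named in the submitters' processing notes, and the annotation is not given in the sources used here. The kit was stranded, per the labels' protocols. Symbols were matched for 22509 genes. Of the deposited lengths, 77.62% were multiples of 3. Counts were filtered (filterByExpr by group, 15535 genes left), scaled by TMM and fitted with edgeR 4.0.16 (quasi-likelihood test, 1 mean per group over the 6 libraries, Benjamini-Hochberg threshold 0.05) in R 4.3.3. The script was tested on simulated data. CPM use TMM-scaled library sizes. The members and lists were chosen with earlier results of these data known. The labels do not state separate cultures for the libraries of one group, so the spread behind p-values may be technical. Each ES cell pair differed beyond sampling noise (chi-square at least 13.21 for each degree of freedom). Named genes are the members, Terf2, the 8 most like the family, up to 6 called genes per list with the largest difference (otherwise 3), and the neighbours that are nearest or differ most; values of other markers, receptors and Trim6 were chosen after they were seen. Some list members are counted with their list but not reported here by name. Alternatives were relative log expression scaling, DESeq2 1.42.0, other filters, fewer groups, a replicate block and leaving out libraries. Coding sequences were aligned with MAFFT 7.526.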

Additional observations from a re-analysis of the deposited data

How the results depend on the processing

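The lower level of the family sum and of each member in FLICs kept its direction and its call under each alternative run, not counting the filter of at least 5 CPM in 2 libraries, which the members and the sum pass only through the OHT libraries: the sum's log2 difference was -4.08 to -4.04. In the fold of single members with OHT in ES cells, the log2(CPM + 1) scale gave 6.07 for Usp17la, 10.3 for Usp17lb, 8.66 for Usp17lc, 5.15 for Usp17ld and 7.57 for Usp17le, since a pseudocount shrinks the fold of low genes. Leaving out 1 library put the sum's fold at 11.8 to 20.2. The count of all genes called with OHT in ES cells was unstable: 83 in the fit reported, 371 with DESeq2, 262 with no count filter, 46 with at least 5 CPM in 2 libraries, 148 with ES cell libraries only, and 18 to 6165 with 1 library left out. Between untreated FLICs and untreated ES cells the count was 8532, and 5375 to 12025 with 1 library left out. The cause of these changes was not tested. The numbers in the ES cell titles do not say that libraries were paired. The differences between libraries 1 and 2 without and with OHT correlated across 15535 genes (Pearson 0.345), and a fit with the number as a block called 1206 genes. With that block and OHT in ES cells, edgeR called 1 USP-type gene, 3 other deubiquitinases, 2 cytokine genes, 1 substrate gene and 2 neighbours, where the fit reported called 0 of each. In FLICs, with at most 7 counts per member, depth limits any ranking of members.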

Other observations

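The share of a member's coding sequence that also occurs in another member depends on the length of the window. With windows of 50 bases, 63.3% of Usp17lc and 61.6% of Usp17ld were also found in another member, against 19.0% of Usp17la. With windows of 100 bases the shares were 48.5% for Usp17lc, 48.5% for Usp17ld and 5.75% for Usp17la, so Usp17lc and Usp17ld remained the hardest pair to separate at each of the 3 lengths tried. Reads of Usp17le could also be shared outside the 5 genes: 17.5% of its 50-base windows, and 5.89% of its 100-base windows, occurred in transcripts of other genes.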
